A study of Mus musculus with 6 samples.

Results

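The 7 fibroblast growth factor (FGF) ligand genes of the early embryo, Fgf3, Fgf4, Fgf5, Fgf8, Fgf15, Fgf17 and Fgf18, were followed in mouse embryonic stem cells (ESCs) in which the NuRD chromatin complex, a nucleosome remodeler and histone deacetylase, had been depleted. They were found by gene symbol among 22180 genes on the Mouse Gene 2.0 ST array. All 7 had a probe set that carried only their own symbol, 8 probe sets in all. Fgf15 had 2 of them, and the one with the higher mean over the arrays stood for it.

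The cells carried a lentiviral short hairpin RNA (shRNA) against Chd4, which encodes the ATPase of NuRD, against Mbd3, which encodes its methyl-CpG-binding domain protein, or a control shRNA. Each of these 3 lines was profiled as stem cells on gelatin with leukemia inhibitory factor and serum (day 0) and as aggregates kept for 4 days in neural differentiation medium with serum replacement (day 4). No allele, strain or clone is named in the labels, and no other agent is given for any group. Each of the 6 groups is 1 array, so a difference between 2 groups has no replicate check. The hairpins left part of their targets. Chd4 intensity after Chd4 knockdown was 29.8% of control at day 0 and 71.3% at day 4, and Mbd3 intensity after Mbd3 knockdown was 43.0% and 75.5%.

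FGFs are secreted proteins that bind FGF receptor tyrosine kinases together with heparan sulfate and signal largely through the RAS and ERK kinases. In mouse stem cells, FGF4 made by the cells themselves drives ERK signaling that prepares them to leave the naive state. Fgf5 marks the epiblast after implantation, and Fgf8 is a signal of the primitive streak and later of the midbrain-hindbrain boundary, with Fgf17 and Fgf18 as its closest relatives in sequence. Fgf15, the mouse counterpart of human FGF19, is transcribed in the early neural tube, and Fgf3 in hindbrain and ear.

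Values are array intensities on a linear scale, and differences are of log2 intensities. Array medians over all probe sets ran from 39.6 to 41.4. The higher of these, 41.4, was used as a floor below which a level is not read. Intensities of different genes come from different probes and are not compared with each other. In comparisons of 2 arrays, a gene entered if the brighter array reached its median, and genes whose log2 values differed by at least 1 were counted as past 2-fold. All 10 stem cell markers measured, among them Pou5f1, Nanog and Zfp42, exceeded the floor in each day 0 array. Summed intensity of these 10 genes was 8963 in control at day 0 and 3125 at day 4, and that of 10 neural progenitor markers 539 and 6060. Markers of fibroblasts other than Vim, Col1a1, Thy1 and Col1a2 were below the floor in every array. Of 9 endoderm markers, Gata4, Foxa2, Dab2 and Cxcr4 were above it in all 6 arrays and Afp and Ttr in none. The sum of the 9 was 485 in control at day 0, 1292 in control at day 4 and between 500 and 710 in the knockdowns. In control, Cxcr4 alone stood at 91.6 at day 0 and 802 at day 4. Foxa2 was at 61.1 and 116 and Dab2 at 87.8 and 137 there, and Gata4 at 52.3 and 49.8 and Sox17 at 43.3 and 38.1. The sum of 8 trophectoderm markers was 805 in control at day 0 and 404 at day 4. It was 687 and 526 in the Chd4 knockdown and 829 and 610 in the Mbd3 knockdown. In control, Krt8 was at 214 and 73.6, Krt18 at 197 and 70.3 and Tfap2c at 132 and 54.4. Cdx2 was near the floor there, at 43.6 and 39.1, Gata3 was at 54.8 and 60.5, and Elf5 was under the floor in every array.

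Fgf4, the stem cell ligand, stood at 436 in control, 417 after Chd4 knockdown and 223 after Mbd3 knockdown at day 0. At day 4 it stood at 119 in control, 377 after Chd4 knockdown and 211 after Mbd3 knockdown. Control at day 4 was thus the lowest of the 6 arrays, and within each knockdown line the 2 days were nearly level. Control cells were 3.67-fold lower at day 4 than at day 0, against 1.11-fold lower after Chd4 and 1.06-fold lower after Mbd3 knockdown. The Mbd3 knockdown started 1.96-fold below control at day 0, and the Chd4 knockdown at 95.6% of control. At day 4 Fgf4 was 3.17-fold higher than control after Chd4 knockdown and 1.77-fold higher after Mbd3 knockdown. In bulk RNA, fewer cells of a type and less RNA per cell cannot be told apart. The summed stem cell markers were at 3125 in control, 5938 after Chd4 knockdown and 5888 after Mbd3 knockdown at day 4, and 9 of the 10 were above control in each knockdown there. At day 0 the sums were 8963, 10158 and 9078 in the same order. Within each knockdown line the sum was lower at day 4 than at day 0, but single markers differed. In the Chd4 knockdown, Tfcp2l1 stood at 1312 at day 0 and 323 at day 4, Pou5f1 at 163 and 152 and Dppa3 at 138 and 187. The part of these markers in the Fgf4 differences was not tested.

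Fgf17, an Fgf8 relative, was high in control stem cells and low in the other 5 arrays. It stood at 195 in control, 66.2 after Chd4 knockdown and 84.3 after Mbd3 knockdown at day 0, and at 62.2, 84.8 and 81.9 in the same order at day 4. Those 5 arrays lay between 62.2 and 84.8. Control was 3.13-fold lower at day 4 than at day 0. The Chd4 knockdown was 2.94-fold and the Mbd3 knockdown 2.31-fold below control at day 0, and 1.36-fold and 1.32-fold above it at day 4.

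Fgf15, the neural tube ligand, ranged widest of the members, over 14.6-fold. It stood at 195 in control, 82.2 after Chd4 knockdown and 64.3 after Mbd3 knockdown at day 0. At day 4 it stood at 938 in control, 179 after Chd4 knockdown and 230 after Mbd3 knockdown. All 3 lines were higher at day 4, by 4.81-fold in control, 2.18-fold after Chd4 knockdown and 3.58-fold after Mbd3 knockdown, and both knockdowns lay below control on both days. The Chd4 knockdown was 2.37-fold below control at day 0 and 5.23-fold at day 4, and the Mbd3 knockdown 3.04-fold and 4.08-fold. Fgf15 in either knockdown at day 4 was thus near the control level of day 0. The log2 range of Fgf15 over the 6 arrays exceeded that of 99.8% of the 14264 genes whose brightest array reached the floor. Summed neural progenitor markers at day 4 were 6060 in control, 837 after Chd4 and 1237 after Mbd3 knockdown. All 10 were below control in each knockdown. The sum of 7 neural crest markers was 1513, 415 and 493 in the same order. Among them Ednrb, Sox9 and Pax3 were past 2-fold below control in each knockdown, where 11.7% and 8.35% of all genes were past 2-fold. Pax3 stands in both lists. Foxd3 went the other way, at 71.0 in control, 117 after Chd4 and 87.9 after Mbd3 knockdown. Snai2 was at 62.7, 57.4 and 78.5, Sox10 was near the floor and Tfap2a under it in every array. The part of these markers in the Fgf15 difference was not tested.

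The other Fgf15 probe set was dim. It read 41.9 in control, 34.9 after Chd4 knockdown and 35.2 after Mbd3 knockdown at day 0, and 53.7, 39.0 and 38.1 at day 4. Only both control arrays reached the floor, and control at day 4 was again the highest. With the mean of both probe sets, the Fgf15 log2 difference from control at day 0 was -0.76 after Chd4 and -0.93 after Mbd3 knockdown, short of 2-fold. The step between the days was then 0.64 and 0.98 on the log2 scale in these lines, also short of 2-fold, and 1.31 in control.

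Fgf5, the epiblast ligand, was higher at day 4 in each line. It stood at 50.5 in control, 42.8 after Chd4 knockdown and 53.3 after Mbd3 knockdown at day 0, and at 82.5, 68.1 and 114 at day 4. The day 4 arrays were all above the day 0 arrays. The step was 1.63-fold in control, 1.59-fold after Chd4 knockdown and 2.14-fold after Mbd3 knockdown. Fgf5 after Mbd3 knockdown was 1.38-fold above control at day 4, and after Chd4 knockdown 1.21-fold below it.

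Fgf18, like Fgf17 an Fgf8 relative, differed between the days mainly in the knockdowns. It stood at 139 in control, 99.1 after Chd4 knockdown and 89.3 after Mbd3 knockdown at day 0, and at 143, 157 and 264 at day 4. The Mbd3 knockdown thus held both the lowest and the highest of the 6 values, a 2.95-fold step, against 1.59-fold after Chd4 knockdown and 1.04-fold in control.

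Fgf8 stayed close to the floor, at 38.8, 40.3 and 36.8 in control, Chd4 and Mbd3 knockdown at day 0 and at 49.5, 53.7 and 48.7 at day 4. Only the day 4 arrays passed 41.4, so that the steps are lower bounds of 1.19-fold, 1.30-fold and 1.18-fold. Fgf3 was below the floor in all 6 arrays, between 28.9 and 33.8, and no difference is read for it.

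**Figure D1:**
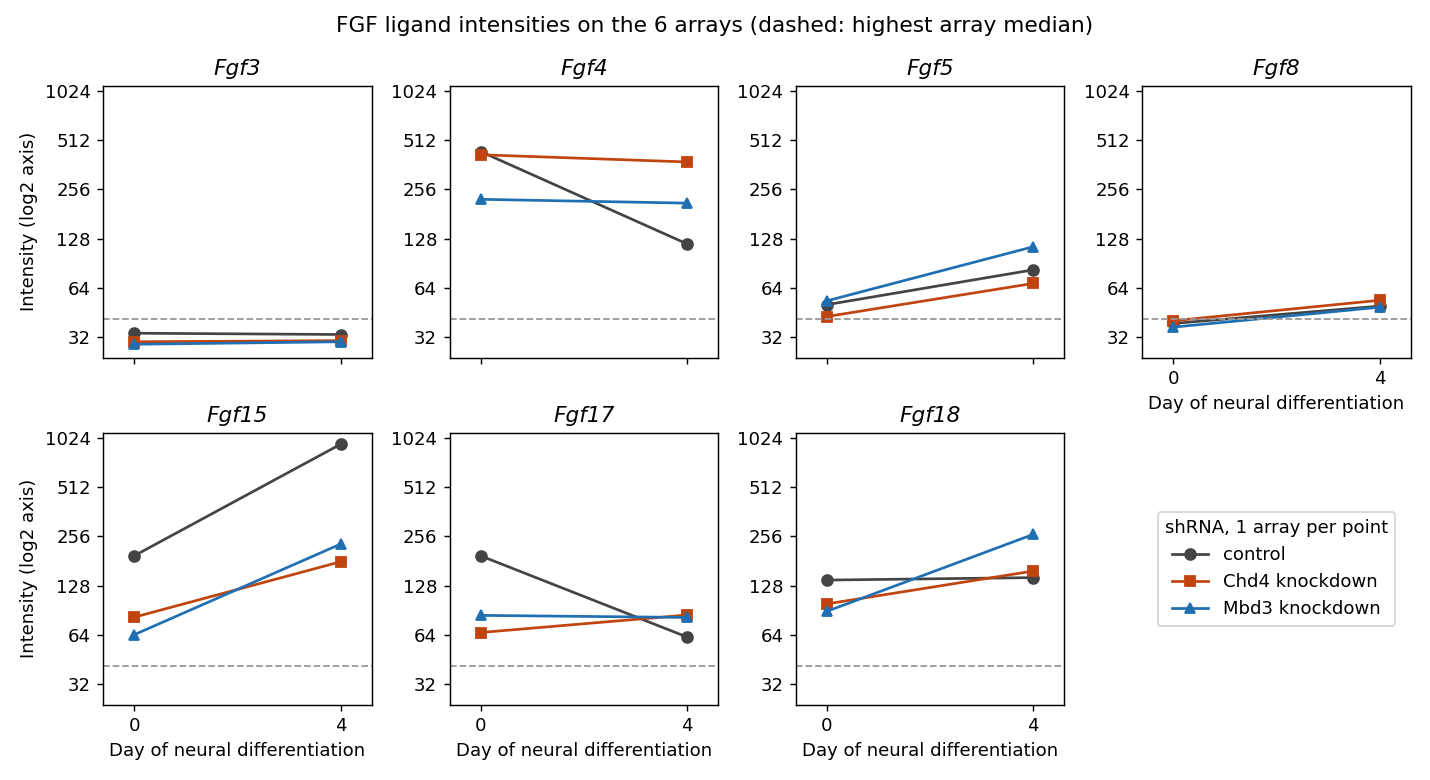
Intensity of each FGF ligand gene (vertical axis, log2 spacing) at day 0 and day 4 in the control, Chd4 knockdown and Mbd3 knockdown lines; each point is 1 array and the dashed line is the highest array median, 41.4. Fgf15 in control reaches 938 at day 4, Fgf4 and Fgf17 are at 119 and 62.2 there, and Fgf3 lies under the dashed line throughout; levels are to be read within a panel.

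The members were then counted against all genes in each comparison. In control, 6 of the 7 members entered between the days: Fgf15 was past 2-fold higher and Fgf4 and Fgf17 past 2-fold lower, where 12.8% of 13830 genes were past 2-fold in either direction. In the Chd4 knockdown, Fgf15 alone was past 2-fold between the days (2.86% of all genes), and after Mbd3 knockdown Fgf15, Fgf18 and Fgf5, all higher (2.71% of all genes). The median log2 difference of the entered members was 0.20 in control, 0.54 after Chd4 knockdown and 0.75 after Mbd3 knockdown, against 0.003, -0.01 and -0.03 over all genes.

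Against control at day 0, Fgf15 and Fgf17 were past 2-fold lower, and no member higher, after Chd4 knockdown (1.26% of all genes past 2-fold in either direction) and after Mbd3 knockdown (0.68%). These 2 comparisons share the control array. With 5 members entered, all 5 were lower after Chd4 and 4 of 5 after Mbd3 knockdown, with medians of -0.48 and -0.97 against -0.01 and -0.002 over all genes. At day 4, Fgf4 was past 2-fold higher and Fgf15 lower after Chd4 knockdown (11.7% of all genes), and Fgf15 alone was past 2-fold, lower, after Mbd3 knockdown (8.35%). These also share their control array. The medians of the 6 entered members were 0.13 and 0.43, against -0.04 and -0.06 over all genes, and 4 of 6 were higher than control in each knockdown.

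The knockdowns were set against each other without the control arrays. No member was past 2-fold between the Chd4 and Mbd3 knockdowns at day 0 (1.05% of all genes) or at day 4 (1.1%). Fgf4 came closest: the Chd4 knockdown was higher by 0.91 on the log2 scale at day 0 and by 0.84 at day 4, where 95% of genes differed by less than 0.66 and 0.56. Fgf5 and Fgf18 were lower with Chd4 than with Mbd3 knocked down at day 4, at log2 differences of -0.75 and -0.74. For Fgf15 the differences were 0.36 at day 0 and -0.36 at day 4, and for Fgf17 -0.35 and 0.05.

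**Figure D2:**
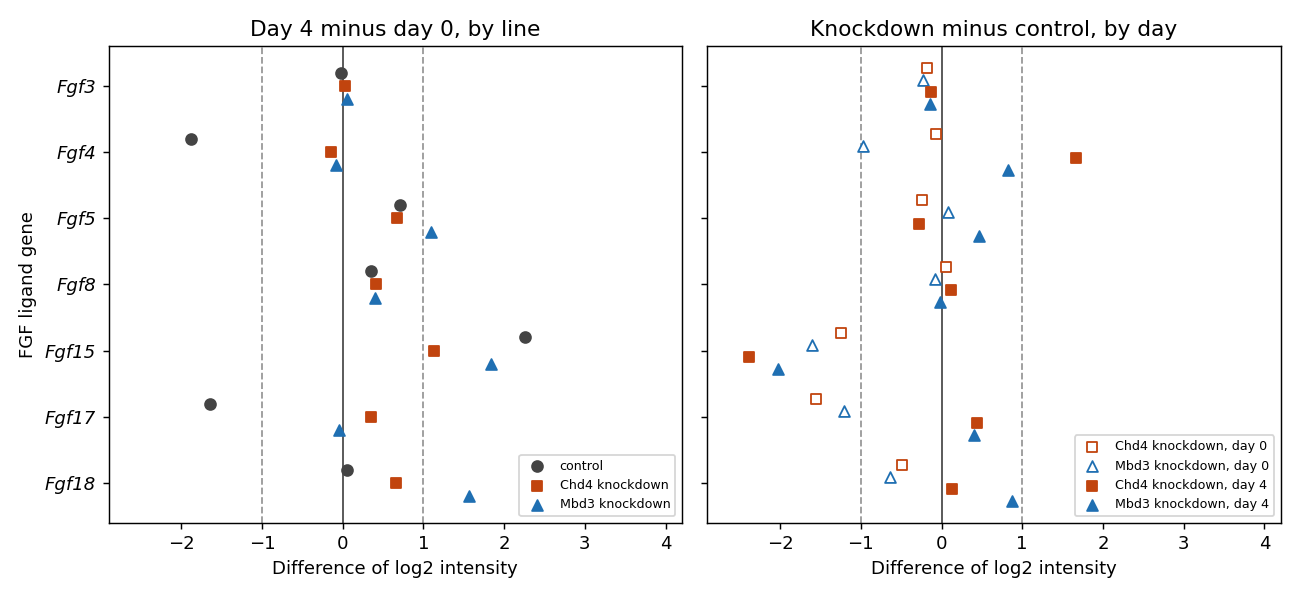
Differences of log2 intensity for each FGF ligand gene, at left between day 4 and day 0 in each line and at right between each knockdown and control at day 0 (open) and day 4 (filled); each point compares 2 arrays and dashed lines mark 2-fold. Fgf15 lies left of -1 in all 4 knockdown comparisons, while Fgf17 lies left of -1 at day 0 and right of 0 at day 4.

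Tests were possible only in fits that pool arrays across groups. The sources do not say whether samples came from separate cultures, so the p-values measure the spread between these arrays only. In the first fit, limma took the Chd4 and Mbd3 arrays of a day as replicates of a knockdown arm, so the error is the spread between different knockdowns, and the lone control arrays are assumed to vary alike. Fgf3 was too dim to enter. At day 4, Fgf15 was lower in the knockdown arm, at a log2 difference of -2.21 ± 0.23 (SE), with a limma adjusted p = 0.0076, and lower in 2 of 2 knockdown arrays. It was the 1 of 6 members called, while 12.0% of 12926 genes were called in this contrast. Its adjusted p over the 6 alternative settings ran from 0.00627 to 0.0340. Fgf4 stood at 1.24 ± 0.47, higher in both knockdown arrays, with a limma adjusted p = 0.151, and Fgf5, Fgf8, Fgf17 and Fgf18 were between 0.05 and 0.51.

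The difference between day steps was tested in the same fit. For Fgf17 the step in the knockdown arm exceeded that in control by 1.80 ± 0.27, with a limma adjusted p = 0.0414, where 2.62% of all genes were called. This call was lost in 4 of the 6 alternatives, with adjusted p from 0.0397 to 0.100, and so rests on the setting. For Fgf4 the same term was 1.76 ± 0.66 with a limma adjusted p = 0.214, and for Fgf15 -0.78 ± 0.33 with a limma adjusted p = 0.259. At day 0 limma called 0.0% of genes between knockdown and control, with 814 genes at an unadjusted p under 0.05. Fgf17 at -1.38 ± 0.19 and Fgf15 at -1.43 ± 0.23 were among the latter, both with a limma adjusted p = 0.738. Between the days in the knockdown arm 0.325% of genes were called and no member. Fgf15 came nearest, at 1.48 ± 0.19 with a limma adjusted p = 0.0553.

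In the other fit, with shRNA and day as additive terms over all 6 arrays, limma called 0.0% of genes for the day, the Chd4 knockdown or the Mbd3 knockdown. At an unadjusted p under 0.05 there were 1962, 1014 and 647 genes, with Fgf5, Fgf8 and Fgf15 among the first and Fgf15 among the other two. The day term was 1.74 ± 0.24 for Fgf15, 0.83 ± 0.14 for Fgf5, 0.39 ± 0.11 for Fgf8 and -0.70 ± 0.40 for Fgf4, with limma adjusted p-values of 0.163, 0.179, 0.255 and 0.452. A step that differs between lines counts as error in this fit. Without the control line, limma called Fgf15, Fgf5 and Fgf18 between the days, at adjusted p = 0.00639, 0.0198 and 0.0247, among 679 of 12926 genes called. That fit has fewer residual degrees of freedom than the one over all 6 arrays. It also drops the line whose Fgf18 step was 1.04-fold. With either knockdown line left out instead, no member was called.

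Fgf3, Fgf4 and Fgf15 follow one another on chromosome 7 in RefSeq (assembly GRCm38.p6), with no other protein-coding gene between them, and Fgf15 overlaps the long noncoding gene Gm26793. The measured protein-coding genes beside them were read too, a look added after the values were seen. Ccnd1, which encodes cyclin D1 and lies beyond Fgf15 and LTO1, stood at 581, 184 and 261 in control, Chd4 and Mbd3 knockdown at day 0 and at 1139, 322 and 377 at day 4. As with Fgf15, both control arrays were above the knockdown arrays of the same day, by 2.22-fold to 3.53-fold, and each line was higher at day 4. LTO1, between them, stayed within 51.3 and 68.9. Ano1, a chloride channel gene on the Fgf3 side, was at 252 in control at day 4 and between 40.2 and 59.5 elsewhere. Fgf4, between Fgf3 and Fgf15, had its lowest value in the array where Fgf15, Ccnd1 and Ano1 had their highest. Neighbours on this stretch thus differed in their order over the 6 arrays.

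**Figure D3:**
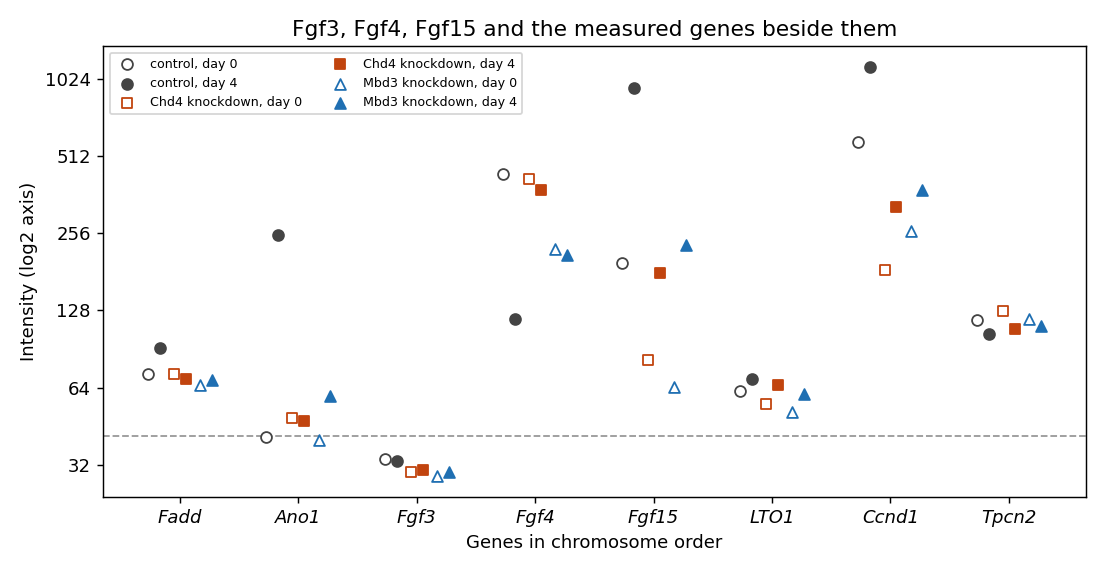
Intensity (log2 spacing) of the measured genes from Fadd to Tpcn2 in chromosome order, with each array of the 3 lines at day 0 (open) and day 4 (filled); the dashed line is the highest array median. Fgf15 and Ccnd1 are highest in the control array of day 4, at 938 and 1139, where Fgf4 is lowest at 119; levels are to be read within a gene.

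The promoter table of RefSeq (GRCm38.p6) held 4 of the 7 members. The 250 bases before the start of Fgf3 and Fgf4 are shown because these neighbours contrast, with Fgf3 under the floor in every array and Fgf4 well above it. Those of Fgf5 and Fgf18 are shown because these genes were most alike among the members over the 6 arrays (Pearson r = 0.87). The Fgf3 window lies at chr7:144838362-144838611 and that of Fgf4 at chr7:144861136-144861385, that of Fgf5 at chr5:98253934-98254183, all on the plus strand, and that of Fgf18 at chr11:33147401-33147650 on the minus strand. Each reads 5′ to 3′ along its gene, and capitals mark matches to the motifs searched.
Fgf3: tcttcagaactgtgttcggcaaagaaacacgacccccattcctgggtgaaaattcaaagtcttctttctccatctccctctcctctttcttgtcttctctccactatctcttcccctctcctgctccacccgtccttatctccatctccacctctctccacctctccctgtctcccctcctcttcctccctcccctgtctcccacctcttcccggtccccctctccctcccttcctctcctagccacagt
Fgf4: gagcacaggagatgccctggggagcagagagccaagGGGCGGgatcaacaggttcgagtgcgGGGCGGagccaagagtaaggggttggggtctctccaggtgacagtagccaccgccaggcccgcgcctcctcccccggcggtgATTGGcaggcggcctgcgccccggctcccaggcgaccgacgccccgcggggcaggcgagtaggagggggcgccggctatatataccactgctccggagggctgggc
Fgf5: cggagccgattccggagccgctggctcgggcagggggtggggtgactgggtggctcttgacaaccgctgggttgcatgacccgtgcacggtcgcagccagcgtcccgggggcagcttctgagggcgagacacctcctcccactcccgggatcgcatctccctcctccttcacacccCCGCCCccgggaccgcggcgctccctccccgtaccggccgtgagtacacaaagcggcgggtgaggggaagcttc
Fgf18: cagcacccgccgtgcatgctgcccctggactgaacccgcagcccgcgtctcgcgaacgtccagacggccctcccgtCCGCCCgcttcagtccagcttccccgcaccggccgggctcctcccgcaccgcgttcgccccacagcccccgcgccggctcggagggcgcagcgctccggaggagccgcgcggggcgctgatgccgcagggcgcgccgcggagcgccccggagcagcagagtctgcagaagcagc

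The motifs, searched on both strands, were the TATA box (TATAAA), the CCAAT box (CCAAT), the GC box (GGGCGG) and the octamer of POU factors (ATGCAAAT). Of 32851 promoters of this length, 12.4% held the first, 33.8% the second, 32.7% the third and 1.60% the fourth. Fgf4 had 2 GC boxes and 1 CCAAT box, Fgf5 and Fgf18 had 1 GC box each, and Fgf3 had none of the 4 motifs. The CpG dinucleotides numbered 4 in Fgf3, 21 in Fgf4, 24 in Fgf5 and 37 in Fgf18, against a median of 6 over all promoters. The promoters of Fgf4, Fgf5 and Fgf18 had more CpGs than 83.7%, 88.0% and 97.8% of promoters, and that of Fgf3 more than 37.8%. Fgf8, Fgf15 and Fgf17 had no promoter to read, and a link between CpGs and level was not tested. These matches are a description of the letters in this window.

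Genes with the most similar pattern were sought by Pearson correlation of log2 intensity over the 6 arrays, among 3093 other genes with a log2 range of 1 or more. The points share arrays and are not independent of the day and shRNA, so the values only describe. For Fgf15 the 3 nearest were Lmo4, a LIM-domain cofactor (r = 0.993), Lrp3 (r = 0.993) and Sar1a (r = 0.990), and 104 genes reached r = 0.95. Fgf17 was nearest to Il13ra1 (r = 0.992), Zscan4e (r = 0.964) and Zscan4b (r = 0.944), with 2 genes at r = 0.95 or above. Zscan4e, known from rare stem cells that resemble cleavage-stage embryos, stood at 284 in control at day 0 and between 82.5 and 127.6 in the other arrays. Fgf17 was likewise high in that array alone. Fgf4 was nearest to D1Pas1 (r = 0.987), Lgals3 (r = 0.978) and Rasgrp1 (r = 0.975), Fgf5 to Ccdc136 (r = 0.989), Chaserr (r = 0.984) and Gata2 (r = 0.983), and Fgf18 to Rab26os (r = 0.939), Mir15a (r = 0.931) and Mir670 (r = 0.925).

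The rest of the ligand family was dim or level. Of 15 other FGF genes, 6 entered in the control day comparison and none was past 2-fold in it, where 12.8% of all genes were. Fgf14, an intracellular FGF of neurons, was the only one past 2-fold in any of the 9 comparisons. It stood at 35.9 in control at day 0, 68.3 in control at day 4 and 32.6 after Chd4 knockdown at day 4. Since the last of these lies under the floor, the size of this difference is not read.

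Most receptor genes read for these ligands were higher at day 4 in control. Of 5 receptor genes entered there, 3 were past 2-fold higher and none lower, with a median log2 difference of 1.17, where 12.8% of all genes were past 2-fold. Fgfr3 stood at 35.0 in control at day 0, 240 in control at day 4, 36.1 after Chd4 knockdown at day 4 and 44.0 after Mbd3 knockdown at day 4. It was thus read far above the floor in a single array. Fgfr2 stood at 102, 148 and 224 in control, Chd4 and Mbd3 knockdown at day 0 and at 247, 148 and 225 at day 4, so that each knockdown line was nearly level between the days. Fgfrl1, a receptor without a kinase domain, was 1.17 higher on the log2 scale at day 4 in control, 0.47 after Chd4 and 0.75 after Mbd3 knockdown. No receptor was past 2-fold between the days in either knockdown.

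Target and feedback genes of FGF and ERK signaling split in control, with 3 of 24 past 2-fold higher and 7 lower at day 4 and a median of -0.19. Over all genes, 12.8% were past 2-fold in this comparison. Spry4, a feedback inhibitor of the pathway, stood at 538, 219 and 245 in control, Chd4 and Mbd3 knockdown at day 0 and at 77.5, 192 and 143 at day 4. Its highest and lowest arrays, control at day 0 and control at day 4, were also those of Fgf4 and Fgf17. Etv5, an ERK-induced transcription factor, stood at 989, 757 and 886 at day 0 and at 278, 657 and 625 at day 4. Control was thus lowest at day 4 for both genes. Egr1, an immediate early gene, was lower at day 4 in all 3 lines, by log2 differences of -2.61 in control, -1.21 after Chd4 and -2.02 after Mbd3 knockdown. Flrt3, which encodes a membrane protein induced by FGF, was 2.11 higher in control and 0.43 and 0.49 in the knockdowns. Fgfr3 and Flrt3 were under the floor in control at day 0, so their control steps start from a level that is not read.

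Against control at day 0, Myc and Spry4 were past 2-fold lower of 23 targets after Chd4 knockdown, and Myc, Spry4 and Etv1 of 22 after Mbd3 knockdown, with medians of -0.32 and -0.17 and 1.26% and 0.68% of all genes past 2-fold. At day 4 the Chd4 knockdown had Spry4 and Etv5 past 2-fold higher and Flrt3 and Egr2 lower, with a median of 0.04, and the Mbd3 knockdown had Etv5 higher and Flrt3 and Egr2 lower, with a median of 0.16. These 4 and 3 of 24 targets stand beside 11.7% and 8.35% of all genes, shares not far from those of the list. Among 12 transducers, Gab1, an adaptor of receptor tyrosine kinases, was 1.46 above control after Chd4 and 1.39 after Mbd3 knockdown at day 4. Braf, an ERK pathway kinase, was 1.09 and 0.71 above. Sos2, an activator of RAS, was 2.38 higher at day 4 than at day 0 in control, 0.93 after Chd4 and 1.25 after Mbd3 knockdown.

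Heparan sulfate genes, whose products hold FGFs at the cell surface, differed most among the core proteins. Of 17 such genes entered at day 4, 5 were past 2-fold lower and 1 higher than control after Chd4 knockdown (median -0.62), and 3 and 1 after Mbd3 knockdown (median -0.50), beside the same 11.7% and 8.35% of all genes. The syndecan gene Sdc4 was the higher one, by 2.26 and 2.05. Gpc3, a glypican gene, was at -1.75 and -1.62, Sdc2 at -1.65 and -1.16 and Sdc3 at -1.39 and -1.14.

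**Figure D4:**
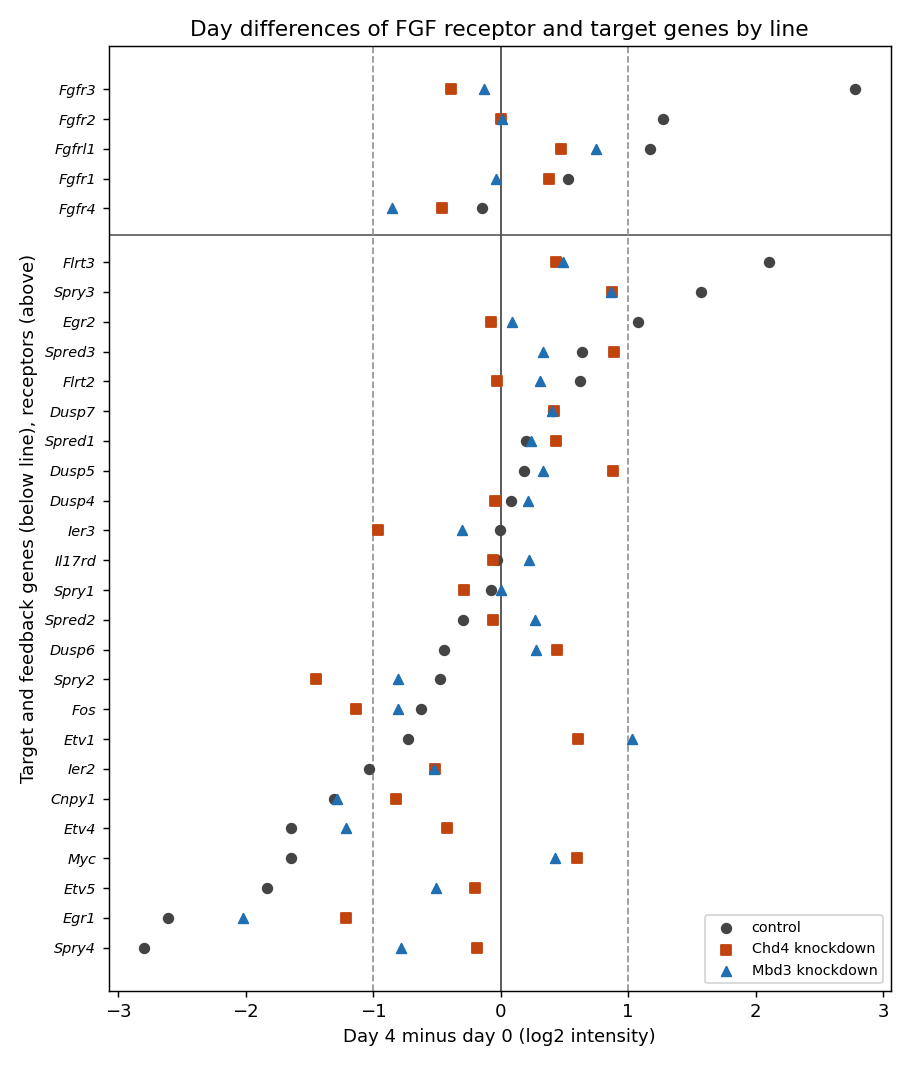
Day 4 minus day 0 in log2 intensity for 5 FGF receptor genes (top) and 24 target and feedback genes (below), ordered by the control value within each list; each point compares 2 arrays of a line and dashed lines mark 2-fold. Fgfr3 is at 2.78 in control and at -0.39 and -0.13 in the Chd4 and Mbd3 knockdowns, and Spry4 at -2.80, -0.19 and -0.78.

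Regional markers of the tissues in which these ligands act gave the following levels. Of 10 midbrain-hindbrain boundary markers, a domain of Fgf8, Fgf17 and Fgf18, Pax2 was past 2-fold higher and Cnpy1 lower at day 4 in control, with a median of 0.18. Over all genes, 12.8% were past 2-fold between these arrays. In control at day 4, En1 and En2 were at 44.7 and 41.9, just above the floor, and at day 0 they were at 29.9 and 50.7. Knockdown levels at day 4 lay on either side of control. Pax2 was at 90.8 in control, 37.6 after Chd4 and 26.9 after Mbd3 knockdown, and Gbx2 at 125, 205 and 193. Of 6 markers of the anterior neural ridge and forebrain, another domain of Fgf8, Lhx2 and Sp8 were past 2-fold higher at day 4 in control. Both were past 2-fold below control in each knockdown at day 4, beside 11.7% of all genes for Chd4 and 8.35% for Mbd3. Lhx2 stood at 72.4, 61.1 and 56.6 in control, Chd4 and Mbd3 knockdown at day 0 and at 223, 73.1 and 88.9 at day 4. Sp8 was at 99.8 in control at day 4 and under the floor in the other 5 arrays. Six3, Hesx1 and Emx2 were under the floor in all 6 arrays, and Rax was above it only in control at day 0, at 42.8. Of 9 primitive streak markers, the tissue of early Fgf8, none of those entered was past 2-fold in any of the 9 comparisons. Primed epiblast markers, which share a stage with Fgf5, had medians of 0.41 in control, 1.16 after Chd4 and 1.02 after Mbd3 knockdown between the days. Past 2-fold higher were 1, 5 and 4 of 8, and lower 1, 0 and 0, beside 12.8%, 2.86% and 2.71% of all genes. Pou3f1 among them stood at 76.9, 45.4 and 49.6 at day 0 and at 120, 97.3 and 141 at day 4, in the order control, Chd4 and Mbd3 knockdown. Dnmt3b and Foxd3 went the other way in control. In the same order, Dnmt3b stood at 827, 650 and 485 at day 0 and at 591, 1618 and 1353 at day 4. Foxd3 was at 185 in control at day 0 and 71.0 at day 4, and Otx2 was nearly level there, at 107 and 122.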

How the data were processed

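Total RNA of 6 samples, 1 per group, was hybridized to Mouse Gene 2.0 ST arrays and analysed by the authors in GeneSpring GX 12.6.1, per the labels' design text. The submitters' processing notes name RMA, without a version. What was deposited are linear intensities from 17.4 to 7980, and a genome build was not given in the sources used here. They were put on the log2 scale without rescaling. The platform annotation gave 1 symbol for 23521 of 34351 probe sets, several for 1814 and none for 9016; only the first kind was used, with symbols updated through RefSeq (GRCm38.p6) for 23328. The probe set with the highest mean stood for a gene.

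Samples were grouped by the labels. With 1 array per group, differences between 2 arrays have no test. limma 3.58.1 in R 4.3.3 fitted 12926 genes whose mean log2 reached the median over all probe sets, in 2 fits with 2 residual degrees of freedom each, with Benjamini-Hochberg adjustment over all genes and calls at an adjusted p under 0.05. Both were also run on simulated data in which all arrays of a gene had the same spread. This cannot check the assumption that the lone control arrays vary like the knockdown arrays. Python 3.11.15, numpy 2.4.6 and pandas 2.3.3 did the rest.

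All members are named. Other genes are the up to 4 with the largest difference past 2-fold in each pathway list (control between days, or Chd4 knockdown against control at day 4), the 3 nearest by correlation to each member with a log2 range of 1 or more, and a few given with small counts or as markers, chosen after their values were seen. The members and lists were chosen with earlier results of these data known. Of the listed genes, Frs2, Ndst1 and some others were not analysed here. Alternatives subtracted 16 before log2, raised values under 41.4 to it, averaged probe sets, centred arrays, dropped the filter, let the variance follow intensity, or left out a line.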

Additional observations from a re-analysis of the deposited data

Results flagged for a closer look

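Fgf17, Fgf4 and Fgf18 had differences of opposite sign, each of at least 0.3 on the log2 scale, between lines or days. Fgf17 stood at -1.65 between the days in control and at 0.36 in the Chd4 knockdown. Against control, Fgf17 was at -1.56 at day 0 and 0.45 at day 4 in the Chd4 knockdown, and at -1.21 and 0.40 in the Mbd3 knockdown. The difference of its day step between the knockdown arm and control, 1.80, had a limma adjusted p = 0.0414, which passed the threshold in 2 of 6 alternatives. Fgf4 in the Mbd3 knockdown was at -0.97 against control at day 0 and at 0.83 at day 4, and Fgf18 at -0.63 and 0.88. For the Mbd3 line alone, with 1 array per group, these differences were not tested. Apart from the Fgf17 day difference within the Chd4 knockdown, all these effects rest on the 2 control arrays. No group holds enough samples to look for an outlying array.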

How the results depend on the processing

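Of the counts of members recomputed under other settings, 82 stayed within 1.5 times of their value and 8 did not. Of single members' values, 510 kept their side of the threshold, 4 passed it newly and 8 no longer passed it. Most of these values were short of the threshold in the main setting, and many counts were 0 there. Keeping their side is thus a weak check for them. Of those past the threshold, 0 turned in sign. Turns in sign among values short of it were not counted. With the mean over all probe sets, the members past 2-fold numbered 1 in place of 2 for either knockdown against control at day 0 and 0 in place of 1 between the days in the Chd4 knockdown, since the dim second probe set of Fgf15 entered its mean; between the days in the Mbd3 knockdown Fgf15 was lost too, leaving 2 in place of 3. In the additive fit without the control line, 3 members in place of 0 were called between the days, and 679 genes in place of 0. The call of Fgf17 on the difference between day steps gave 0 in place of 1 with 16 subtracted before log2, with values under 41.4 raised to it, with arrays centred and with no filter, at adjusted p = 0.0537, 0.0767, 0.0527 and 0.100; the cause was not tested. Over all genes that term had 182, 18, 218 and 0 calls there, against 339. Between the days in the knockdown arm, 42 genes became 0 with no filter or raised values, 1 with centring, 14 with averaged probe sets and 67 with a variance trend, and at day 4, 1549 became 1005 with no filter, more genes being tested. With 16 subtracted, genes past 2-fold at day 0 were 324 in place of 169 for Chd4 and 207 in place of 91 for Mbd3, with Fgf4 joining Fgf15 and Fgf17 in the latter at -1.02, and 295 in place of 140 between the knockdowns. At day 4 they were 266 in place of 147 between the knockdowns and 1713 in place of 1134 for Mbd3 against control. Between the days they were 643 in place of 383 for Chd4 and 643 in place of 362 for Mbd3. No paired analysis was possible because the labels give no replicate numbers, apart from the additive fit, whose day term compares the days within each line. Signal near the floor limits Fgf8 and Fgf3.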
